A study of Mus musculus with 13 samples.

Results

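The genes described here encode 10 factors that bind or open chromatin when the genome of the mouse embryo is first switched on: Nr5a2, Tfap2c, Klf17, Klf5, Klf4, Dppa2, Dppa4, Yap1, Tead4 and Pou5f1. They were found by gene symbol in the embryo files, and all 10 were listed among 16739 genes. Of these, 9 had a mean of 1 FPKM or more over the 9 embryo libraries and were tested among 9766 such genes. Tead4 lay under that level and is given by its values and by a separate fit of all listed genes. FPKM scales the fragments of a transcript by its length and by the library total, so levels can be set side by side between genes of different length.

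The embryos were obtained by in vitro fertilisation with sperm of Swiss mice, and RNA of pools of 2-cell embryos was sequenced. AAE embryos (3 libraries) had fathers injected with acrylamide at 25 mg/kg per day on 5 days, with sperm taken 3 days after the last injection, so that exposure met sperm in the epididymis. AAS embryos (3 libraries) had fathers given the same course, with sperm taken 24 days after it, so that exposure met spermatocytes, the meiotic germ cells. Control embryos (3 libraries) had fathers injected with the vehicle PBS, and their sperm collection day, the fathers' age and the hour of embryo collection are not given in the sources used here. Acrylamide is a reactive compound that forms in heated starchy food. A library pools the RNA of several embryos, the labels do not say that libraries of a group come from separate fathers, and p-values therefore measure only the spread between these libraries.

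In the mouse the embryo starts with RNA stored by the oocyte, and the main wave of transcription from its own genome comes at the 2-cell stage. Transcription factors made from stored RNA, or from the first new RNA, find sites in the promoters and enhancers of the genes that are then switched on. NR5A2 is an orphan nuclear receptor, TFAP2C an AP-2 factor, and KLF17, KLF5 and KLF4 are zinc finger proteins that bind GC-rich sites. DPPA2 and DPPA4 are chromatin-bound partners that, in mouse embryonic stem cells, act upstream of Dux and the Zscan4 genes. YAP1 is a coactivator with no DNA-binding domain of its own that works through TEAD factors and is held back by the kinases of the Hippo pathway, and OCT4, the product of Pou5f1, is a POU factor required in pluripotent cells.

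The promoters of Nr5a2 and Klf17 are shown first, because Nr5a2 is the tested factor whose AAE and AAS libraries did not overlap with the control libraries and Klf17 is the most abundant. Of all tested genes, 8.51% did not overlap between AAE and control and 13.1% between AAS and control, and Nr5a2 did overlap between AAS and AAE. The sequences are the 250 bases before the transcription start in RefSeq (GRCm38.p6), written in the direction of transcription. The upstream start of Nr5a2 lies after chr1:136960449-136960698 and its downstream start after chr1:136953631-136953880, and that of Klf17 after chr4:117765667-117765916, all on the minus strand. Capitals mark matches, on either strand, to a KLF motif (CCNCNCCC), an NR5A motif (CAAGGNCA), a TEAD motif (GGAATG), an AP-2 motif (GCCNNNGGC) or the octamer of POU factors (ATGCAAAT).
Nr5a2, upstream start: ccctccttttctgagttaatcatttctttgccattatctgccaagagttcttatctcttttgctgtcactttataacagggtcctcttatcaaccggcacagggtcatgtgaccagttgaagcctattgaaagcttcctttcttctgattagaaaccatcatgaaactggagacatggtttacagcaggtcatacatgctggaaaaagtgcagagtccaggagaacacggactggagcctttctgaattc
Nr5a2, downstream start: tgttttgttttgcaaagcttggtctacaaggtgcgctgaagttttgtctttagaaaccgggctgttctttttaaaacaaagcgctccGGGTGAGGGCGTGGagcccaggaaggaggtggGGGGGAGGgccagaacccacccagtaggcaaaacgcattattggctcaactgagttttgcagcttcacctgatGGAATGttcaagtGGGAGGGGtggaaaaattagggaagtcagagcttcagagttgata
Klf17: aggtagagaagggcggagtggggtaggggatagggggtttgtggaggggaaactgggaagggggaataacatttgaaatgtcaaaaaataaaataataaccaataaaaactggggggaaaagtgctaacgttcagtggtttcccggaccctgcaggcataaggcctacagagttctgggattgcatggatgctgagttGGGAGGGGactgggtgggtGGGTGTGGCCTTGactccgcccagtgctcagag

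The upstream window of Nr5a2 held none of the 5 motifs, while the downstream window held 4 KLF matches, of which a pair overlap, and 1 TEAD match 58 bases before the start. The Klf17 window held 2 KLF matches, and the one 33 bases before the start overlaps an NR5A match at 28 bases. Among 32851 mouse promoter windows of the same length, 45.9% held the KLF motif, 5.53% the NR5A motif, 12.6% the TEAD motif, 13.7% the AP-2 motif and 1.6% the octamer. Windows were found for 5 of the 10 genes. The Klf4 window had a GC content of 74% against a median of 52.4% over all windows, and held 9 KLF matches, several of them overlapping, and 1 AP-2 match. The Yap1 window, at 76.4% GC, held 1 AP-2 and 1 TEAD match, and the windows of Pou5f1 held 3 KLF matches at its first start and no match at its second. A match is a run of letters and not a measured binding site.

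The libraries listed 11625 to 13914 genes in AAE, 12173 to 12673 in AAS and 13675 to 14392 in control. The files give no counts, so sequencing depth is unknown. AAE replicate 3 and AAS replicate 2 stood apart: their median correlation with the other libraries, over log2(FPKM + 1), was 0.872 and 0.870, against 0.894 to 0.927 for the other libraries. All 10 markers of 2-cell embryos were listed, and their summed level was 1676 to 1945 FPKM in AAE, 1453 to 1693 in AAS and 1734 to 2269 in control. All 10 oocyte markers were listed too, at 1362 to 1767 FPKM in AAE, 1407 to 1559 in AAS and 1333 to 1630 in control. Of 10 sperm markers 3 were listed anywhere, with sums of at most 5.14 FPKM. The 8 markers of later embryo lineages summed to 17.4 to 23.6 FPKM in AAE, 15.05 to 24.96 FPKM in AAS and 21.4 to 28.7 FPKM in control, and Cdx2, which marks later trophectoderm, was near 0. The 6 blood markers summed to 1.51 to 8.58 FPKM in AAE, 0 to 2.15 FPKM in AAS and 0.6 to 6.75 FPKM in control. In such pooled samples, fewer embryos of a kind and less RNA per embryo cannot be told apart.

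Taken by level, the factors spread from the most abundant messages of the embryo to hardly detected ones. In control embryos Klf17 averaged 474 ± 33.9 FPKM (SD, n = 3), 3.04-fold above Yap1 at 156.2 ± 2.51 FPKM, with no overlap between their libraries. Pou5f1 (150.1 ± 43.6 FPKM) and Dppa2 (102.6 ± 11.6 FPKM) came next, and the ranges of Yap1, Pou5f1 and Dppa2 overlapped from neighbour to neighbour. Nr5a2 followed at 41.7 ± 1.99 FPKM, 2.46-fold below Dppa2, and stood clear of Klf5 at 33.5 ± 6.26 FPKM. Klf5, Dppa4 (29.6 ± 4.88 FPKM) and Klf4 (24.7 ± 2.35 FPKM) overlapped from neighbour to neighbour, Tfap2c lay below them at 16.4 ± 1.95 FPKM, and Tead4 was last.

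In AAE and in AAS embryos the top and the bottom of this order were in place, with Klf17 first, Yap1 second, and Tfap2c just above Tead4 at the end, by mean. The step between Nr5a2 and the genes next to it was not: Nr5a2, Klf5, Dppa4 and Klf4 overlapped in AAE, where their means were 24.5 to 27.5 FPKM, and also in AAS, where Klf5 (29.96 FPKM by mean) came before Nr5a2 (26.5 FPKM). As a percentile among the genes listed in a library, Klf17 stood between 99.1 and 99.6 in all 9 libraries. Nr5a2 stood at 70.4 to 85.6 in AAE and 78.0 to 84.2 in AAS, against 87.8 to 88.97 in control.

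**Figure D1:**
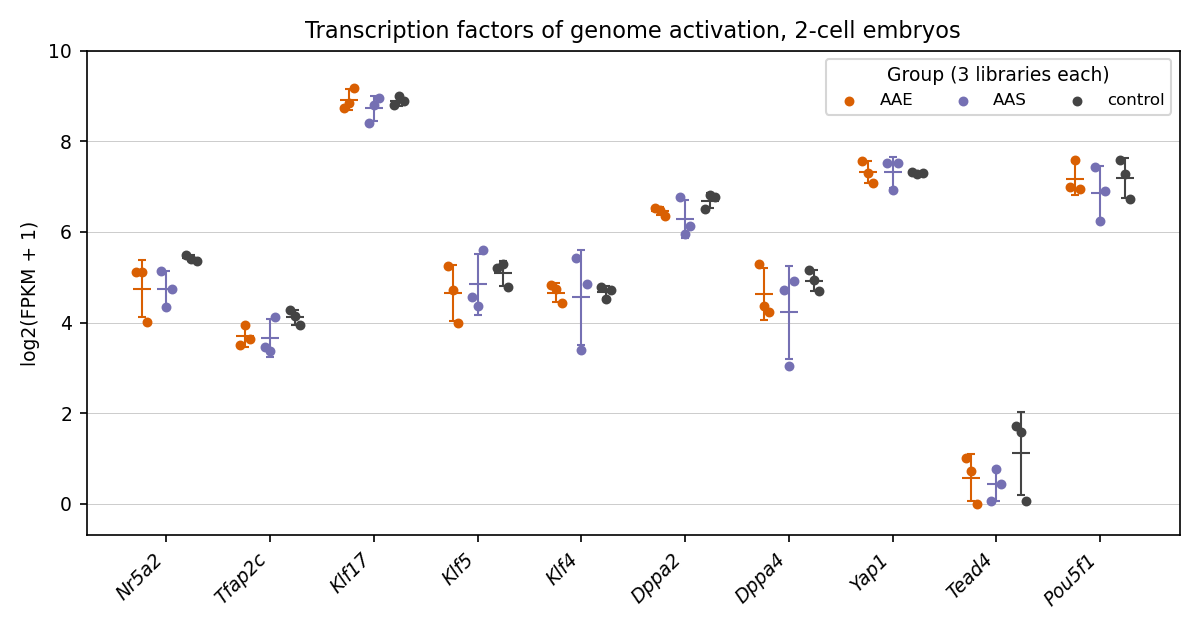
Levels of the 10 factors in every library as log2(FPKM + 1), with AAE, AAS and control libraries side by side for each gene; points are libraries, horizontal bars are group means and vertical bars are the SD (n = 3). Klf17 is highest in all groups, Tead4 lowest, and for Nr5a2 all AAE and AAS libraries lie under the 3 control libraries.

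In no comparison did limma call any of the 9 tested factors, nor any other gene, at an adjusted p under 0.05. The share of all 9766 genes called was 0% for AAE against control, for AAS against control and for AAS against AAE. At an unadjusted p under 0.05 limma gave 206 genes (2.11%), 602 genes (6.16%) and 755 genes (7.73%) in these comparisons, and none of the factors. The authors' deposited table called 11 genes higher and 4 lower in AAE than in control, 9 higher and 26 lower in AAS than in control, and 17 higher and 38 lower in AAS than in AAE, with none of the factors among them. Both comparisons with control share the same 3 control libraries.

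The fold changes of the factors lay mostly below 0. In AAE 7 of 9 were below 0, with a median log2 fold change of -0.23, beside 55.4% of all tested genes and a median of -0.05. In AAS 8 of 9 were below 0, with a median of -0.33, beside 59.4% and -0.11. Klf4 was among the 8 at -0.13, although its mean FPKM was higher in AAS than in control. The authors' deposited table gives log2 fold changes above 0 for Klf4 in AAS (0.16) and for Klf4 (0.03) and Pou5f1 (0.05) in AAE. For the other tested factors against control its signs were those of limma. Of the 10 markers of 2-cell embryos, 8 were below 0 in AAE, with a median of -0.17, and 9 in AAS, with a median of -0.56, which is lower than the median of the factors. The part of embryo stage in these values was not tested. Scaled to a sum of 1000000 FPKM per library, which moves the median of all genes in AAS against control to -0.00, 8 of 9 were still below 0, with a median of -0.19; with median-of-ratios factors the count in AAE was 5 of 9 and the median -0.17. Without AAE replicate 3 the median for AAE was -0.10, with 6 of 9 below 0, and without AAS replicate 2 that for AAS was -0.11, with 7 of 9. In AAS against AAE 8 of 9 were below 0 with a median of -0.11, beside 54.5% of all tested genes and a median of -0.05. Of the 8, Nr5a2 (-0.0007) and Yap1 (-0.0013) lay next to 0, and Klf4 and Yap1 had a higher mean FPKM in AAS than in AAE. The factors gave 4 of 9 and 0.01 when scaled to that sum, and 3 of 9 and 0.18 without AAS replicate 2.

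**Figure D2:**
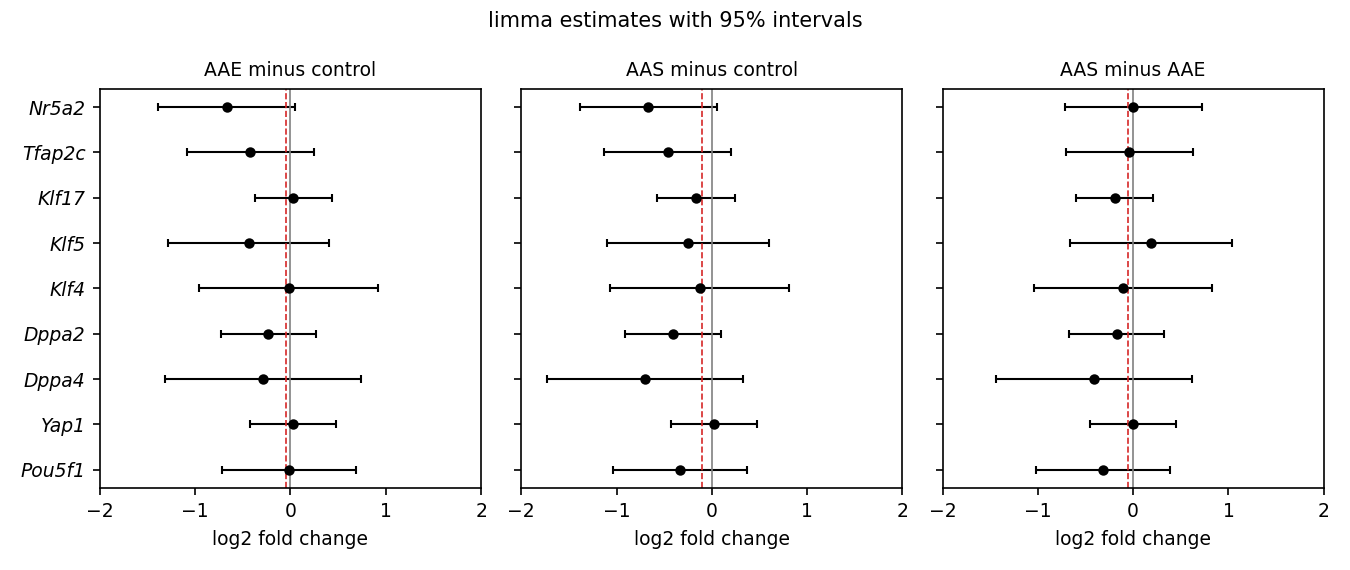
The log2 fold change of each tested factor on the log2(FPKM + 1) scale (horizontal axis) in AAE minus control, AAS minus control and AAS minus AAE; points are limma estimates, bars 95% intervals, the solid line is 0 and the dashed line the median of all tested genes. Nr5a2 sits farthest left in AAE minus control, at -0.67, and every interval reaches across 0.

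Nr5a2 encodes LRH-1, an orphan nuclear receptor that has been reported to help open chromatin and activate genes in mouse 2-cell embryos. The gene lies at chr1:136842562-136960448. It had 33.7, 33.6 and 15.2 FPKM in the AAE libraries, 34.3, 19.4 and 25.8 FPKM in the AAS libraries, and 43.96, 41.1 and 40.15 FPKM in the control libraries. All 6 libraries from exposed fathers were below all 3 control libraries, and neither AAE nor AAS overlapped with control.

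The mean was 27.5 ± 10.7 FPKM in AAE and 26.5 ± 7.47 FPKM in AAS, against 41.7 ± 1.99 FPKM in control (SD, n = 3 each). Of the 9 tested factors Nr5a2 alone had no overlap with control, once for AAE and once for AAS; of all tested genes, 4.78% were lower without overlap in AAE and 8.6% in AAS. Between AAS and AAE all 9 factors overlapped, while 11.3% of tested genes did not. For 1.14% of tested genes, 111 in number, all 6 exposed libraries lay below all 3 control libraries. In limma's fit across all genes the AAE value was -0.67 ± 0.33 on the log2 scale (SE; 95% interval -1.39 to 0.05), with an adjusted p of 1, from 0.0652 before adjustment. The AAS value was -0.67 ± 0.33 (-1.39 to 0.05), with an adjusted p of 0.781, from 0.0650 before adjustment. Neither value passed the threshold. The authors' deposited table gives Nr5a2 a log2 fold change of -0.57 in AAE against control (adjusted p 0.992, from 0.0728 before adjustment) and of -0.57 in AAS against control (adjusted p 0.563, from 0.0332 before adjustment). Between AAS and AAE the log2 fold change was -0.00 with a 95% interval of -0.72 to 0.72, so differences of that size in either direction could not be told from 0.

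The size of the AAE value rested in large part on AAE replicate 3, the library with the fewest listed genes: without it the log2 fold change was -0.30, while without AAE replicate 1 or 2 it was -0.85. In AAS it was -0.47 without AAS replicate 2 and -0.87 without AAS replicate 1. Scaled to a sum of 1000000 FPKM per library, it was -0.54 in AAS (limma's unadjusted p = 0.136) and -0.67 in AAE (0.0715). The separation of the groups also rested on the sum over transcripts. In control replicate 2 the gene had 2 transcript rows, of 33.2 and 7.88 FPKM, and the larger row alone lies under 2 AAE libraries and 1 AAS library; with the highest row per gene the log2 fold change in AAE was -0.57. The part of depth and library quality in these values was not tested.

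**Figure D3:**
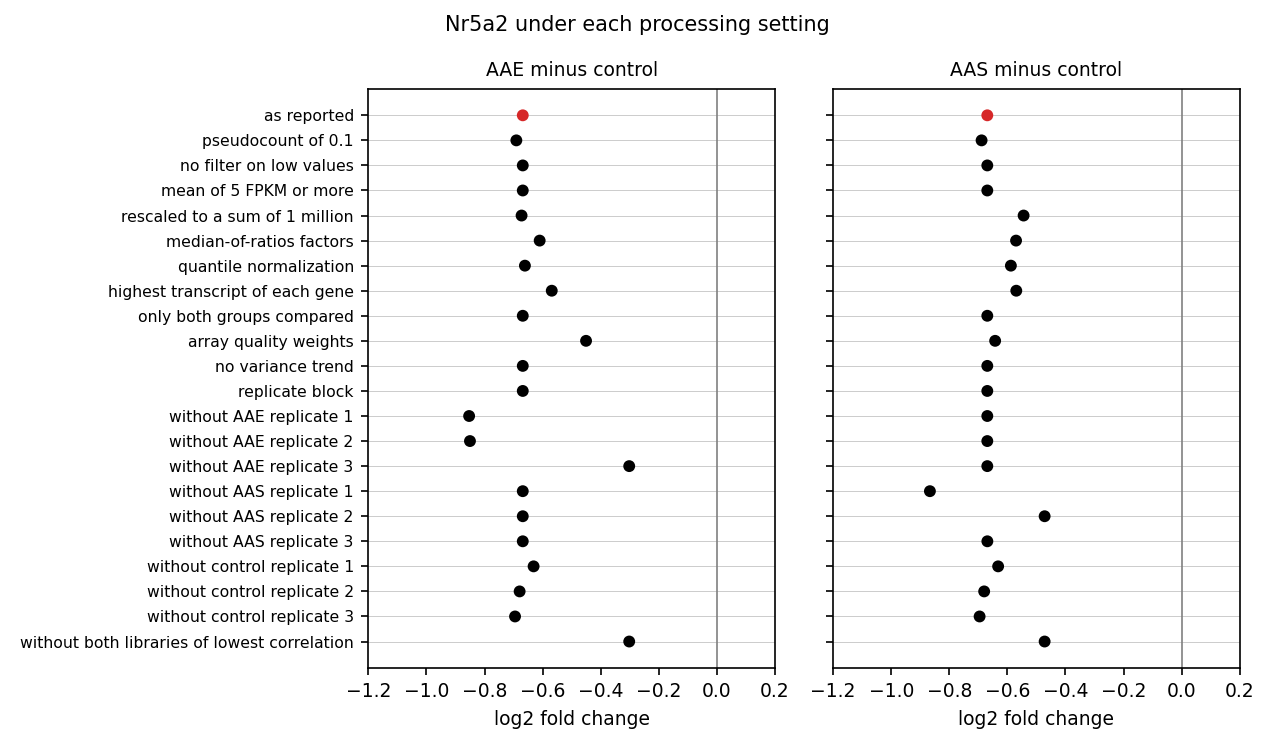
Log2 fold change of Nr5a2 (horizontal axis) under the fit as described and under each alternative, for AAE minus control and AAS minus control; each point is 1 setting, with the reported fit in red. All values are below 0, and those nearest 0 in AAE, at -0.30, come without AAE replicate 3, alone or together with AAS replicate 2.

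Nr5a2 is also expressed in the granulosa and cumulus cells that surround the oocyte, so the other markers of those cells were read beside it. Of 12 such markers 7 were listed anywhere, and Amh, Foxl2, Inha, Ptx3 and Fst were at 0 in all 9 libraries. The summed level of the 12 was 0.49 to 4.6 FPKM in AAE, 0.68 to 6.84 FPKM in AAS and 4.18 to 5.61 FPKM in control, below the level of Nr5a2 itself in every library.

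Tfap2c encodes AP-2γ, which in mouse embryos acts in the polarising blastomeres and later in trophoblast, and lies at chr2:172545678-172558622. It had 10.3, 14.4 and 11.45 FPKM in AAE and 9.96, 9.38 and 16.5 FPKM in AAS, against 18.2, 16.7 and 14.4 FPKM in control. Only AAE replicate 2 and AAS replicate 3 reached into the control range, each above control replicate 3. The log2 fold change was -0.42 (95% interval -1.09 to 0.24) in AAE, with an adjusted p of 1, and -0.46 (-1.13 to 0.20) in AAS, with an adjusted p of 0.800. Without AAS replicate 3 the AAS value was -0.70.

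Tfap2c was not the most abundant AP-2 gene of these embryos. Tfap2e averaged 148 FPKM in AAE, 123 FPKM in AAS and 145.9 FPKM in control, and its lowest library, at 92.2 FPKM in AAS, was above the highest library of Tfap2c.

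Klf17, at chr4:117756659-117765666, encodes a zinc finger factor stored in mouse oocytes. Its libraries had 424, 460.0 and 579 FPKM in AAE and 340.3, 444 and 499 FPKM in AAS, against 442, 509.7 and 470.2 FPKM in control. The groups overlapped broadly, with a log2 fold change of 0.03 (95% interval -0.38 to 0.44) in AAE and -0.16 (-0.57 to 0.24) in AAS. The intervals therefore reach to less than 1 on the log2 scale in either direction. The AAS value was -0.01 without AAS replicate 1 and -0.28 without AAS replicate 3.

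Klf5, at chr14:99298691-99313412, is needed in mouse embryos for both trophectoderm and inner cell mass. It had 36.8, 25.3 and 14.99 FPKM in AAE and 22.5, 19.6 and 47.7 FPKM in AAS, against 35.8, 38.3 and 26.4 FPKM in control. Both the lowest and the highest of the 9 libraries came from exposed fathers. In AAE its log2 fold change was -0.44 (-1.29 to 0.41), -0.11 without AAE replicate 3 and -0.73 without AAE replicate 1. In AAS it was -0.25 (-1.10 to 0.60), and leaving out 1 library moved it to between -0.01 (without AAS replicate 2) and -0.63 (without AAS replicate 3), with -0.11 without AAS replicate 1, -0.15 without control replicate 2 and -0.41 without control replicate 3.

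Klf4, at chr4:55527137-55532475, is one of the factors used to reprogram somatic cells to pluripotency. It had 27.3, 25.5 and 20.55 FPKM in AAE and 41.95, 9.5 and 27.7 FPKM in AAS, against 26.6, 22.1 and 25.5 FPKM in control. AAE and control lay within one narrow range, while AAS replicates 1 and 2 were the highest and the lowest of all 9 libraries. Klf4 had a log2 fold change of -0.02 (-0.96 to 0.92) in AAE and -0.13 (-1.07 to 0.81) in AAS, and the AAS value turned to 0.45 without AAS replicate 2 and was -0.56 without AAS replicate 1 and -0.27 without AAS replicate 3.

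The 3 KLF genes did not move as a block: the ratio of Klf17 to Klf5 in FPKM was 11.5, 18.2 and 38.6 in AAE and 15.1, 22.6 and 10.45 in AAS, against 12.3, 13.3 and 17.8 in control. AAE replicate 3, with the highest Klf17 level and the lowest Klf5 level of all libraries, had the highest ratio. Other KLF genes were at levels near those of Klf5 and Klf4: Klf7 averaged 39.6 FPKM in AAE, 47.2 FPKM in AAS and 52.5 FPKM in control, and Klf11 averaged 21.5 FPKM in AAE, 21.9 FPKM in AAS and 20.7 FPKM in control.

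**Figure D4:**
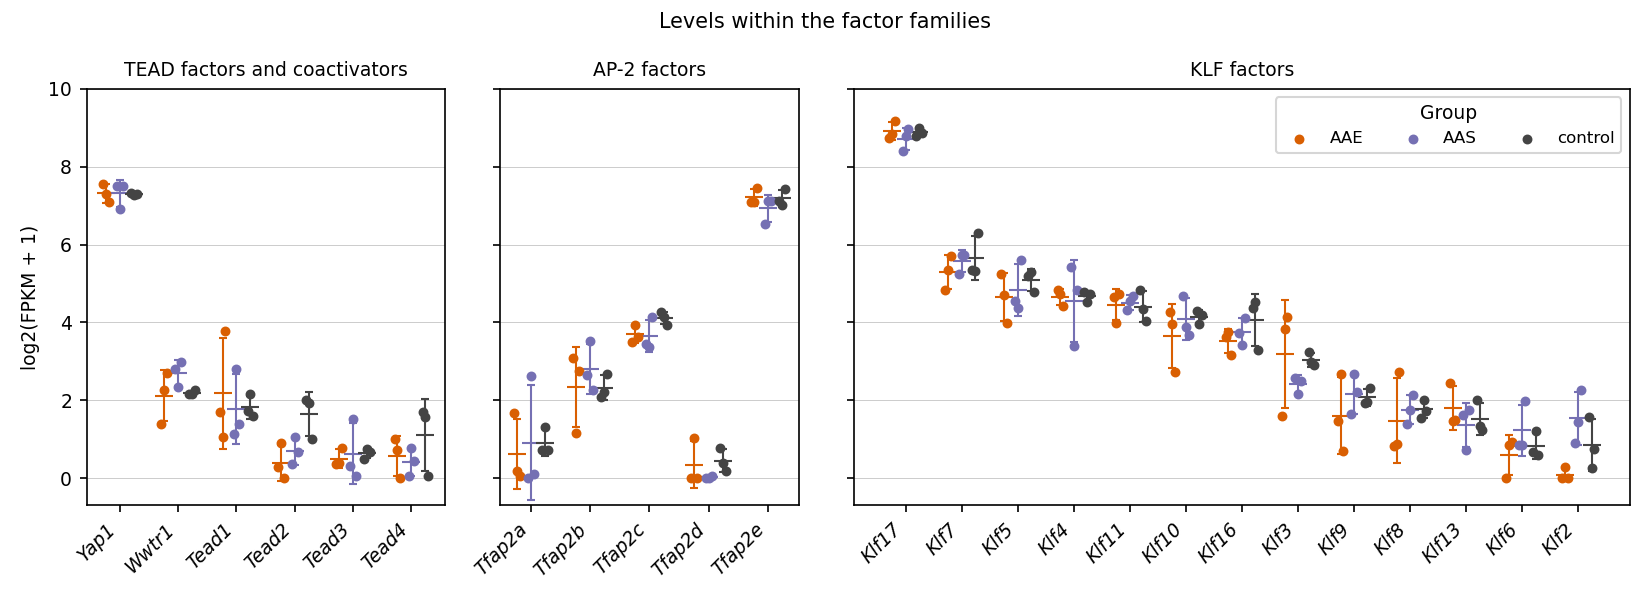
Levels of Yap1, Wwtr1 and the TEAD genes, of the AP-2 genes and of KLF genes as log2(FPKM + 1); points are libraries, coloured by group with AAE left, AAS in the middle and control right, horizontal bars are means and vertical bars the SD (n = 3). Klf17, Yap1 and Tfap2e stand above the other genes of their panels, and no TEAD gene comes near Yap1.

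Dppa2 and Dppa4, whose proteins bind chromatin together, lie on chromosome 16 with 15981 bases between them (chr16:48310274-48319513 and chr16:48283735-48294292). Dppa2 had 90.97, 88.8 and 80.8 FPKM in AAE and 107.4, 61.2 and 68.7 FPKM in AAS, against 89.3, 110.85 and 107.75 FPKM in control. AAE replicate 1 and AAS replicate 1 lay within the control range, and the other exposed libraries lay below it. For Dppa2 the log2 fold change was -0.23 (95% interval -0.73 to 0.27) in AAE and -0.41 (-0.91 to 0.09) in AAS, where limma's adjusted p was 0.796, from 0.0997 before adjustment. The AAS value was -0.65 without AAS replicate 1 (0.00936 before adjustment, adjusted p 0.465) and -0.25 without AAS replicate 2.

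Dppa4 had 38.4, 19.5 and 17.9 FPKM in AAE and 25.3, 7.17 and 29.1 FPKM in AAS, against 34.5, 29.5 and 24.7 FPKM in control. AAS replicate 2 was the lowest library by far, and AAE replicate 1 the highest. For Dppa4 the log2 fold change was -0.29 (-1.32 to 0.74) in AAE and -0.70 (-1.73 to 0.33) in AAS, with an adjusted p of 0.802, and the AAS value was -0.11 without AAS replicate 2. The AAE value was -0.62 without AAE replicate 1, -0.15 without AAE replicate 2, -0.09 without AAE replicate 3 and -0.18 without control replicate 1.

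Dppa2 was above Dppa4 in all 9 libraries, with ratios of 2.37, 4.56 and 4.51 in AAE and 4.24, 8.54 and 2.36 in AAS, against 2.59, 3.76 and 4.36 in control. The partners thus kept no fixed ratio within any group, and all but AAS replicate 2 lay between 2.36 and 4.56.

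Yap1, at chr9:7931999-8004638, had 188.3, 157.7 and 134.6 FPKM in AAE and 181.7, 120.5 and 181.97 FPKM in AAS, against 158.4, 153.4 and 156.7 FPKM in control. The control libraries lay within 5 FPKM of each other, and exposed libraries lay on both sides of them. Yap1 had a log2 fold change of 0.02 in AAE (-0.43 to 0.48) and 0.02 in AAS (-0.43 to 0.47), where it was 0.22 without AAS replicate 2.

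Tead4, at chr6:128227143-128300813, encodes the TEAD factor required for trophectoderm in the mouse. AAE replicates 1 and 2 had 1.00 and 0.66 FPKM, and the file of AAE replicate 3 has no Tead4 row. The gene had 0.04, 0.71 and 0.36 FPKM in AAS, against 2.26, 1.99 and 0.04 FPKM in control. The 2 highest libraries were controls, but control replicate 3 was as low as the lowest AAS library. In limma's fit with no filter the log2 fold change was -0.54 (-1.62 to 0.55) in AAE, with an adjusted p of 1, and -0.69 (-1.77 to 0.40) in AAS, with an adjusted p of 0.796. Single libraries decided these values. Without control replicate 3 they were -1.07 in AAE (adjusted p 1, from 0.0243 before adjustment) and -1.22 in AAS (adjusted p 0.556, from 0.0135). Without control replicate 1 they were -0.24 in AAE and -0.39 in AAS, without control replicate 2 they were -0.30 in AAE and -0.46 in AAS, and without AAE replicate 3 the AAE value was -0.25.

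No other TEAD gene came near Yap1 in level. Tead1 averaged 5.36 FPKM in AAE, 2.94 FPKM in AAS and 2.58 FPKM in control, with 12.75 FPKM in AAE replicate 3 and at most 6.01 FPKM in any other library. Tead2 had 0.22, 0.86 and 0 FPKM in AAE and 0.28, 1.07 and 0.59 FPKM in AAS, against 3.02, 2.82 and 1.01 FPKM in control, so that only AAS replicate 2 reached above the lowest control. Wwtr1, which encodes the YAP1 paralog TAZ, averaged 3.63 FPKM in AAE, 5.66 FPKM in AAS and 3.57 FPKM in control.

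Pou5f1, at chr17:35506032-35510777, had 127.05, 191.98 and 121.7 FPKM in AAE and 171.9, 75.2 and 118.9 FPKM in AAS, against 190.8, 155.3 and 104.1 FPKM in control. The groups overlapped, and the control libraries alone ranged from 104.1 to 190.8 FPKM. The log2 fold change was -0.02 (-0.72 to 0.69) in AAE and -0.33 (-1.04 to 0.37) in AAS. The AAS value was -0.03 without AAS replicate 2, -0.62 without AAS replicate 1, -0.14 without control replicate 1 and -0.57 without control replicate 3.

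The spread between libraries was read beside the levels. The coefficient of variation in control was 1.61% for Yap1, 4.77% for Nr5a2 and 7.15% for Klf17, between 9.52% and 18.7% for Klf4, Dppa2, Tfap2c, Dppa4 and Klf5, and 29.03% for Pou5f1, beside a median of 19.4% over 4454 genes of 10 to 600 FPKM. Of the tested factors Pou5f1 alone was above that median in control. In AAS it was 18.8% for Klf17 and 21.9% for Yap1, and between 28.2% (Nr5a2) and 61.6% (Klf4) for the other tested factors, beside a median of 25.8%. All 9 tested factors had a larger coefficient in AAS than in control, as had 64.3% of those 4454 genes, and 7 of 9 had a larger one in AAE than in control, as had 60.5%. With 3 libraries per group these coefficients are rough, and they were not tested. They were taken on FPKM as deposited, while the FPKM sums of the control libraries were 403498, 403401 and 343796. No coefficient was computed after rescaling to a common sum, so the small ones in control hold for this scale only. AAS replicate 2 was the lowest of all 9 libraries for 6 of the 9 factors (Tfap2c, Klf4, Dppa2, Dppa4, Yap1 and Pou5f1), beside 26.5% of the 4454 genes, and AAE replicate 3 for Nr5a2 and Klf5, beside 17.2%.

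Relatives and reported targets of the factors were read from lists of genes, and limma called none of their genes at an adjusted p under 0.05; the genes with the smallest p in each list are named here with their values. Among 13 tested KLF and SP relatives 10 were below 0 in AAE (median log2 fold change -0.32) and 8 in AAS (-0.07). Sp1, a ubiquitous GC-box factor, averaged 16.98 ± 1.27 FPKM in AAE and 24.2 ± 1.78 FPKM in control (SD, n = 3 each), and Sp3 averaged 48.0 ± 3.28 FPKM in AAS and 56.3 ± 6.68 FPKM in control. Klf2 had 0, 0.21 and 0 FPKM in AAE and 0.88, 1.71 and 3.82 FPKM in AAS, against 1.99, 0.19 and 0.68 FPKM in control.

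Of 11 tested AP-2 relatives and nuclear receptors 7 were below 0 in AAE (median -0.21) and 7 in AAS (-0.13). The orphan receptor gene Esrrb had 1.63, 1.05 and 0.86 FPKM in AAE, against 3.18, 3.57 and 2.44 FPKM in control (log2 fold change -0.90, unadjusted p = 0.0381). Nr6a1, which encodes germ cell nuclear factor, had 21.4, 42.2 and 35.8 FPKM in AAS, against 19.7, 20.8 and 19.99 FPKM in control (0.64, unadjusted p = 0.0383). The groups did not overlap for either gene, but limma's adjusted p was above the threshold for both. Nr3c1, the glucocorticoid receptor gene, averaged 6.64 FPKM in AAE and 4.09 FPKM in control, and Nr2c1 averaged 0.727 FPKM in AAS and 1.59 FPKM in control.

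Of 15 tested genes of the Hippo pathway and TEAD family 9 were below 0 in AAE (median -0.02) and 8 in AAS (-0.04). Mob1a, which encodes an activator of the LATS kinases that restrain YAP1, had 2.67, 6 and 15.6 FPKM in AAS, against 23.2, 30.8 and 21.2 FPKM in control. Every AAS library was below every control library; the log2 fold change was -1.78 with an unadjusted p of 0.00306 and an adjusted p of 0.659. Tead2, whose levels are given above, had the smallest p of this list in AAE, with no overlap with control (log2 fold change -1.255, limma's unadjusted p = 0.0196). In AAS its log2 fold change was -0.96, with overlap (unadjusted p = 0.0618), and neither value passed adjustment. Amot, a junction-associated regulator of YAP1, had 2.01, 2.54 and 6.26 FPKM in AAE, against 1.28, 2.33 and 1.67 FPKM in control, so that its higher AAE mean rested on AAE replicate 3.

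Of 11 tested POU, SOX and pluripotency factors 5 were below 0 in AAE (median 0.01) and 6 in AAS (-0.04). Sox2, a partner of OCT4, averaged 1.30 ± 0.625 FPKM in AAS and 2.79 ± 0.862 FPKM in control, and Zfp42 averaged 3.29 ± 1.51 FPKM in AAS and 8.18 ± 4.04 FPKM in control. Sox15 averaged 1.80 FPKM in AAE and 5.19 FPKM in control, Gbx2 had 19.9, 28.25 and 40.9 FPKM in AAE, against 19.4, 21.15 and 23.3 FPKM in control, and Nanog averaged 2.72 FPKM in AAE, 2.25 FPKM in AAS and 2.24 FPKM in control.

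Of 22 other tested activators and cofactors 13 were below 0 in AAE (median -0.06) and 12 in AAS (-0.17). Nfyb, a subunit of the CCAAT-binding factor NF-Y, had 1.93, 4.50 and 0.85 FPKM in AAE and 3.68, 4.61 and 3.08 FPKM in AAS, against 8.62, 8.71 and 7.55 FPKM in control. Like Nr5a2 it was lower in all 6 exposed libraries than in all 3 control libraries, with unadjusted p-values of 0.00376 in AAE and 0.0476 in AAS that did not pass adjustment. The more abundant NF-Y subunit genes Nfya and Nfyc lay above 0, with overlap. Their log2 fold changes were 0.05 and 0.20 in AAE and 0.17 and 0.315 in AAS. Dppa3, a maternal factor that protects the maternal genome from demethylation, averaged 1276 ± 212 FPKM in AAS and 1806 ± 326 FPKM in control (unadjusted p = 0.0202), and Gabpa averaged 59.7 FPKM in AAE and 83.4 FPKM in control.

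Targets reported elsewhere for these factors were also read. Of 11 tested 2-cell genes downstream of DPPA2 and DPPA4, 5 were below 0 in AAE (median 0.02) and 8 in AAS (-0.12). Zscan4d averaged 186 FPKM in AAE and 144 FPKM in AAS, against 215 FPKM in control, with an unadjusted p of 0.0333 in AAS, Tcstv1 averaged 183 FPKM in AAS and 268.5 FPKM in control, and Usp17lc averaged 87.4 FPKM in AAE and 75.1 FPKM in control. Dux itself was low and overlapped in all groups, at 0.09, 1.80 and 0.95 FPKM in AAE and 1.26, 1.97 and 0 FPKM in AAS, against 0.42, 0.78 and 0.18 FPKM in control. Reads of the Zscan4, Tcstv and Usp17-like copies may be shared between near-identical genes.

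Of 10 targets of YAP1 and TEAD4 only 3 passed the filter. Birc5, a survival and mitosis gene, averaged 177 ± 10.9 FPKM in AAS and 288 ± 78.7 FPKM in control (unadjusted p = 0.0117), with no overlap, and Gata3 had 2.68, 1.69 and 4.23 FPKM in AAE and 2.14, 0.62 and 0.43 FPKM in AAS, against 0.73, 2.54 and 1.68 FPKM in control, with overlap throughout. Ajuba averaged 1.81 FPKM in AAE and 1.73 FPKM in control. Of 7 targets of TFAP2C 4 passed the filter. Cdh1, the E-cadherin gene, averaged 14.01 ± 2.59 FPKM in AAE and 15.9 ± 0.507 FPKM in AAS, against 19.8 ± 2.67 FPKM in control. All 6 exposed libraries of Cdh1 lay below all 3 control libraries, as they did for 1.14% of tested genes. Cldn6 averaged 2.67 ± 2.43 FPKM in AAS and 4.65 ± 3.16 FPKM in control. Pard6b had 14.7, 14.07 and 45.5 FPKM in AAE, against 10.1, 11.97 and 12.2 FPKM in control, with AAE replicate 3 far above all others.

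Each tested factor's pattern over the 9 libraries was set beside that of every tested gene outside the factors. The measure was the Pearson correlation of log2(FPKM + 1). Nr5a2 was most like Def8 (r = 0.975) and Smarce1 (0.968), with 57 genes over 0.9. Pou5f1 was most like Eif3i (0.989) and Tubb5 (0.986), with 91 genes over 0.9, and Dppa4 was most like Eef1b2 (0.974) and Tigar (0.973). Klf17 was most like Tmem182 (0.976) and Rwdd2b (0.957), Klf5 most like Crcp (0.956) and Dcun1d3 (0.942), and Klf4 most like 2010107G23Rik (0.975) and Madd (0.961). Dppa2 was most like Nptn (0.967) and Snw1 (0.963), Yap1 most like Ajuba (0.949) and Ric3 (0.932), and Tfap2c most like Gm10696 (0.934) and Pigq (0.931). Correlations of the factors with each other were not read. These are descriptions over 9 libraries whose depth and quality the genes share, and the closest genes were picked from all tested genes outside the factors.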

How the data were processed

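RNA of 2-cell embryo pools (3 AAE, 3 AAS and 3 control libraries) was prepared with a Nugen Trio kit, as the labels' protocols state. The submitters' notes list HISAT2 2.0.4, DESeq2 and mm10, and give none of them a role. The authors deposited FPKM per transcript row, with no transcript identifier and without rows at 0, and tables with the log2 fold change and p-value of their own comparisons, quoted only where named. Whether strand was used in counting is not given in the sources used here.

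FPKM were summed over the rows of a gene, and a gene without a row was set to 0, although a failed estimate would look alike. The sums equalled the FPKM of the deposited series tables for 99.98% of values, within 0.015 FPKM. Genes averaging at least 1 FPKM over the 9 libraries were tested as log2(FPKM + 1) with limma 3.58.1 in R 4.3.3 (1 fit of all 9 libraries, eBayes with trend, two-sided, Benjamini-Hochberg adjustment over all 9766 genes, threshold 0.05). Fold changes on this scale understate the change of low genes. The script was tested on simulated data. Gene IDs were matched to RefSeq (GRCm38.p6) for 16703 of 16739 genes, which gave coordinates and promoters. Motifs were searched on both strands with Python 3.11.15 and pandas 2.3.3, and figures drawn with matplotlib 3.10.9.

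The factors and the gene lists were chosen with earlier results of these data known. Named genes were all factors and the 2 genes of each list with the smallest p in each comparison with control. The 2 genes outside the factors most correlated with each tested factor were also named. Klf7, Klf11, Tfap2e, Tead1, Wwtr1, Nanog and Dux were added for their levels after their values were seen. Nfya, Nfyc, Mob1b and Stk4 were also added after their values were seen, to stand beside Nfyb and Mob1a. Alternatives were other pseudocounts, filters, scalings, weights and transcript sums, a replicate block and single libraries left out. One more was added after seeing the data: leaving out AAE replicate 3 and AAS replicate 2 together. Sperm small RNA files were not used here.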

Additional observations from a re-analysis of the deposited data

How the results depend on the processing

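No setting gave any of the factors an adjusted p under 0.05 in limma, while in some settings 1 or 2 of the 9 had an unadjusted p under 0.05 (2 in AAS against control with array weights or without AAS replicate 1), as had Tead4 against control without control replicate 3. The count of genes called was 0 in every comparison and setting except AAS against AAE, where it ranged from 0 to 1 when single libraries were left out (1 without control replicate 3). Of 597 values of the factors under alternatives, 541 kept their sign and 56 changed it, none of them for Nr5a2, Tfap2c, Klf5, Dppa2, Dppa4 or Tead4 against control. Changes of the filter, the variance trend, the replicate block or libraries outside the comparison left a factor's fold change as it was. Signs kept under those settings were fixed in advance and are no check of the values. Deviations from the group means correlated at -0.18 to 0.21 between libraries of the same replicate number and at -0.24 to 0.20 between libraries of different numbers. These values show no pairing by number, and a shared day or batch was not tested. With a replicate block no gene was called by limma. An unadjusted p under 0.05 was then found for 201 genes in AAE against control, 582 in AAS against control and 737 in AAS against AAE. With that block Nr5a2 had adjusted p-values of 1 in AAE and 0.821 in AAS. The smallest adjusted p of Nr5a2 in any setting was 0.876 in AAE and 0.414 in AAS. Signs changed as follows, as log2 fold changes, and the cause was not tested. In AAE against control, array weights gave Klf17 -0.0815, Klf4 0.108 and Pou5f1 0.0493, leaving out both libraries of lowest correlation gave Klf17 -0.0992, Klf4 0.0946 and Pou5f1 0.101, median-of-ratios factors gave Klf4 0.0367 and Pou5f1 0.0413, and the highest transcript row gave Pou5f1 0.0593. In AAS against control, quantile normalization gave Klf17 0.024, array weights gave Klf4 0.0658, and leaving out both libraries of lowest correlation gave Klf4 0.453. In AAS against AAE, a pseudocount of 0.1 gave Nr5a2 0.00171, scaling to a sum of 1000000 FPKM gave Nr5a2 0.128, Tfap2c 0.0803, Klf4 0.00904 and Yap1 0.128, median-of-ratios factors gave Nr5a2 0.0401 and Yap1 0.0402, quantile normalization gave Nr5a2 0.0731, Tfap2c 0.0265 and Yap1 0.0725, the highest transcript row gave Tfap2c 0.14 and Yap1 0.0814, array weights gave Tfap2c 0.014 and Yap1 0.0208, and leaving out both libraries of lowest correlation gave Tfap2c 0.069, Klf4 0.358 and Yap1 0.0771. With single libraries left out, the ranges that crossed 0 were -0.0992 to 0.124 for Klf17, -0.102 to 0.0946 for Klf4, -0.0994 to 0.141 for Yap1 and -0.258 to 0.175 for Pou5f1 in AAE against control, -0.563 to 0.453 for Klf4 and -0.0769 to 0.218 for Yap1 in AAS against control, and -0.367 to 0.197 for Nr5a2, -0.28 to 0.0975 for Tfap2c, -0.191 to 0.484 for Klf5, -0.543 to 0.474 for Klf4, -0.758 to 0.184 for Dppa4, -0.119 to 0.195 for Yap1 and -0.441 to 0.0591 for Tead4 in AAS against AAE. Unknown depth, 3 libraries per group and the unlisted zeros limit what can be seen of low genes such as Tead4.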

Other observations

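The deposited files list a gene's transcripts as separate rows without identifiers, so that isoforms can be counted but not named. Yap1 had a larger row that held 57.1% to 86.5% of its FPKM in all 9 libraries. Pou5f1 had 2 rows in all 9 libraries, and the first row in the file held between 20.9% and 78.9% of the gene. Nr5a2 had a second row in control replicate 2 only, with 19.2% of the gene. Since rows cannot be matched between libraries, no isoform was compared between groups.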
